A study of Mus musculus with 3 samples.

Results

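The genes described here encode the proteins of the mitochondrial ribosome, taken as every protein-coding mouse gene whose symbol begins with Mrpl or Mrps followed by a digit. Of the 27179 genes in the deposited table, 78 met the rule, 49 named for the large subunit (Mrpl) and 29 for the small subunit (Mrps). The rule uses names only and no measured value. RNA was measured by sequencing in 3 cultures of bone marrow stromal cells (mBMSCs), the adherent cells grown from marrow, all of wild-type (WT) genotype and all kept at 3% oxygen. Each culture received extracellular vesicles (EVs), small membrane-bound particles released by cells, for 3 days. The Ocn-EV culture received vesicles from mice made by crossing the CAGS-Snorkel line to Ocn-Cre, whose Cre recombinase is driven by the osteocalcin promoter of osteoblasts and osteocytes. The Prx1-EV culture received vesicles from CAGS-Snorkel mice crossed to Prx1-Cre, a driver of the limb bud mesenchyme and the cells it gives rise to. The All-EV culture, the control, received vesicles from WT mice. Every preparation came from bone marrow plasma pooled over 5 mice (2 male and 3 female) aged 6 months on the C57BL/6N background, passed over a magnetic-bead column carrying an antibody to the HA tag. The design text does not say how vesicles from WT mice, which were not part of the CAGS-Snorkel crosses, were held on that column, so what the control culture received is known only from its label. No culture without vesicles is among the samples, the animals were pooled, and each preparation was tested on 1 library, so no replicate spread and no test between conditions exist. "Higher" and "lower" below compare single libraries, and the 95% intervals are exact binomial intervals from read counts that cover counting error only.

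The mitochondrial ribosome translates the few messenger RNAs encoded by mitochondrial DNA, all of them for membrane subunits of the respiratory chain and ATP synthase. Its ribosomal RNAs come from mitochondrial DNA, whereas every one of its proteins is encoded in the nucleus, made in the cytosol and imported. Part of the proteins have counterparts in bacterial ribosomes, and the rest are particular to mitochondria. The large subunit forms peptide bonds and holds the exit tunnel, which lies against the inner membrane, and the small subunit decodes the messenger RNA.

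Reads assigned to genes numbered 15558165 for All-EV, 14233978 for Ocn-EV and 17269204 for Prx1-EV. Levels are the deposited normalised counts. A gene was used for ratios when its mean level over the 3 libraries was at least 50, which left 11067 genes and 77 of the 78 members. The cultures did not hold only stromal RNA. The 15 macrophage marker genes examined were all above 0 in every library and took 1.75% of All-EV reads, 1.27% of Ocn-EV reads and 1.12% of Prx1-EV reads, whereas the 14 stromal markers took 0.0876%, 0.539% and 0.352%. Megakaryocyte markers took 0.0604%, 0.0125% and 0.0107% in that order. Nearly all of that share came from 1 gene, with a level of 10461 in a summed level of 10628 in All-EV. Of the 4 megakaryocyte markers 2 passed the filter and 1 was at 0 in each library. Neutrophil, lymphoid and erythroid markers were at or near 0 throughout. Endothelial markers took 0.00377%, 0.00622% and 0.00631%. The 3 of them tested had a median log2 ratio to All-EV of 0.64 in Ocn-EV and 0.73 in Prx1-EV. The macrophage share was carried by very abundant genes such as Lyz2 (140306, 51741 and 40548) and Itgam (22791, 8534 and 7532). The median macrophage marker was instead higher, with log2 ratios of 0.11 in Ocn-EV and 0.24 in Prx1-EV, 8 of 15 above 0 in each, and a range from -1.44 to 3.75 in Ocn-EV. Of the 12 stromal markers tested 10 were higher in each. The part of such marker differences in the members' ratios was not tested. In bulk RNA fewer cells of a type and less RNA per cell cannot be told apart.

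Mitochondrial ribosomal protein genes were, as a group, lower in both cultures given Cre-line vesicles than in the All-EV culture. In All-EV their levels ran from 96.2 to 1136 with a median of 368. In Ocn-EV they ran from 84.9 to 620.2 with a median of 259.9, and in Prx1-EV from 75.02 to 671 with a median of 269. The members together took 0.171% of All-EV reads (interval 0.169% to 0.173%), 0.148% in Ocn-EV (0.146% to 0.150%) and 0.144% in Prx1-EV (0.143% to 0.146%). All-EV thus held the largest share, and the intervals of the other two overlapped. Mrpl genes made up 0.118%, 0.0983% and 0.0972% of the reads, taking the libraries in the order All-EV, Ocn-EV, Prx1-EV, and Mrps genes 0.0532%, 0.0495% and 0.0473%. This order is kept below wherever 3 levels are listed, and a pair of ratios gives Ocn-EV before Prx1-EV, each against All-EV. The member outside the filter was Mrpl36, the counterpart of a small zinc-binding bacterial protein, which had 3, 1 and 2 reads and supports no ratio.

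**Figure D1:**
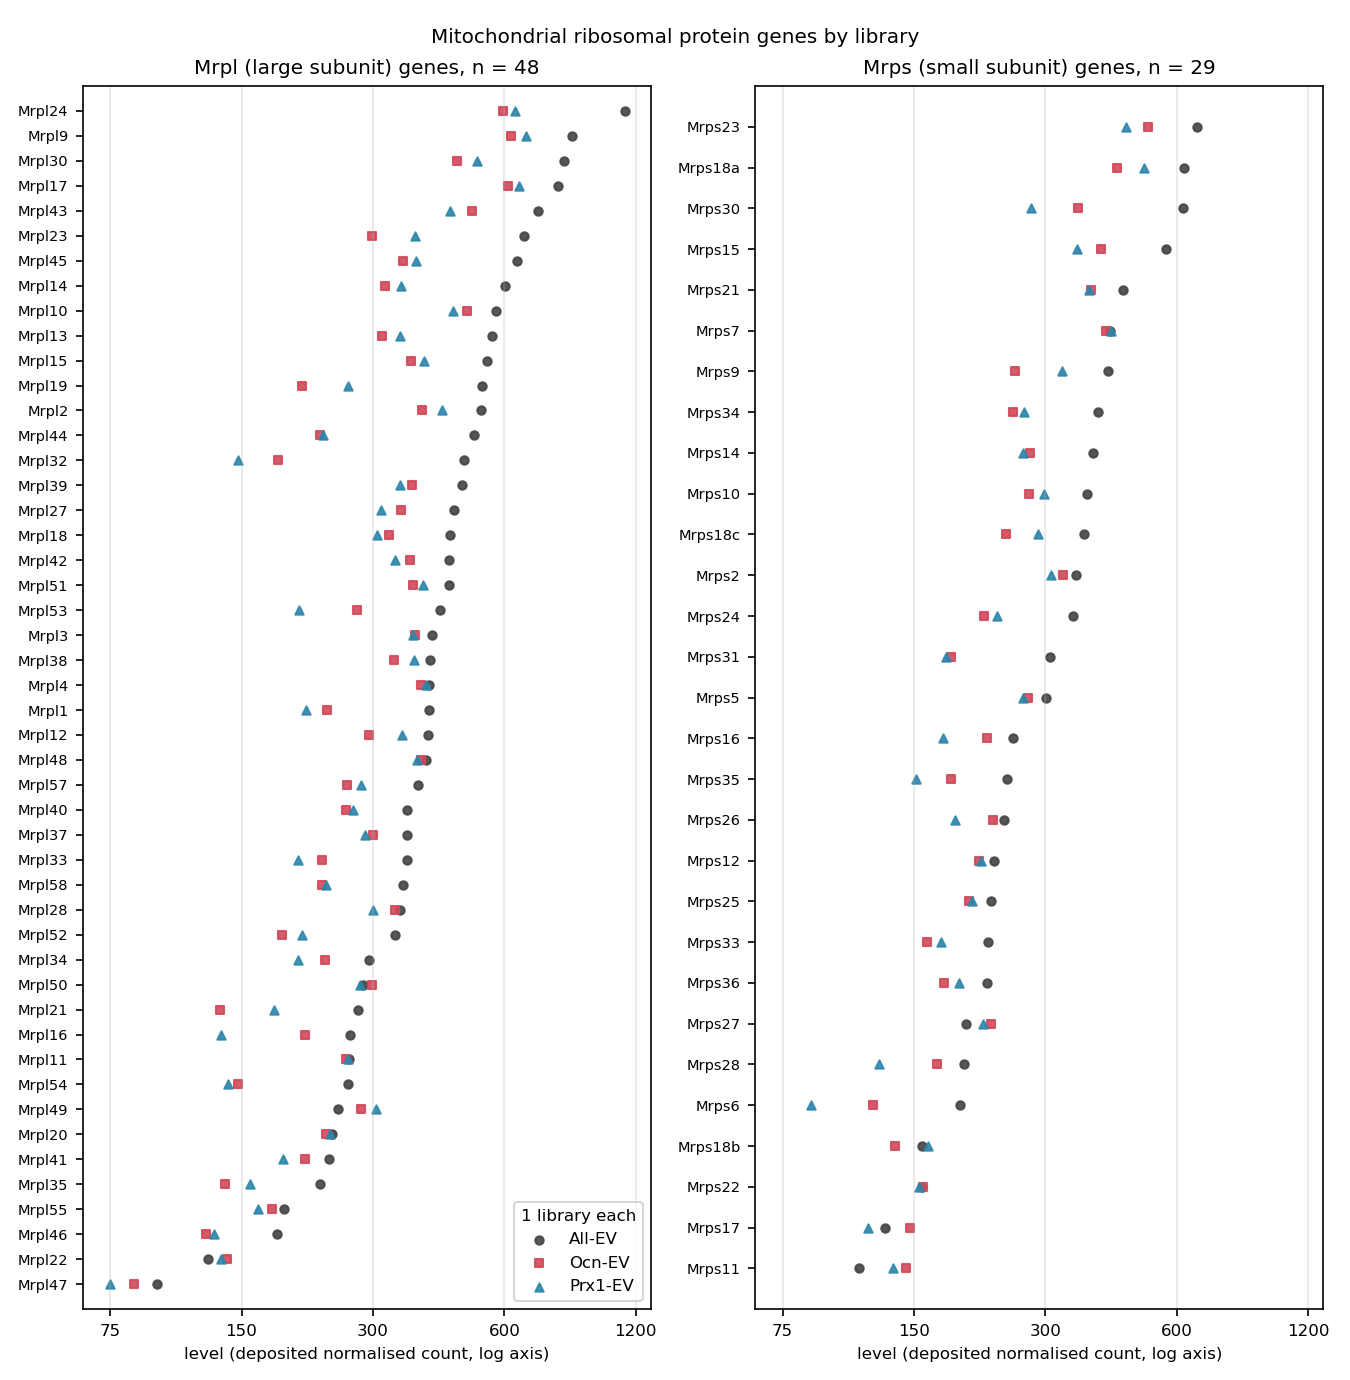
Deposited normalised count (log axis) of the 48 Mrpl and 29 Mrps genes that passed the filter, 1 point per library, with genes ordered by their All-EV level. In most rows the All-EV point lies to the right of the other two, most widely for Mrpl32, Mrpl19 and Mrpl44, while rows such as Mrpl11, Mrps7 and Mrps22 show 3 nearly coincident points.

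In Ocn-EV against All-EV the members had a median log2 ratio of -0.43, with 70 lower and 7 higher, against a median of -0.02 and 51.3% lower over all genes tested. At least 20% lower were 46 members (27% of all genes). By the limit of 1.5-fold, 24 members were lower and none was higher, where 13.6% of all genes tested were lower and 13.8% higher. The counting interval lay wholly below 0 for 52 members and wholly above 0 for none, beside 35% and 32% of all genes. An exact binomial test on the reads, which compares 2 libraries and not the conditions, called 51 members lower. It called 64.5% of all genes, but that share counts both directions and is not a like measure for members called lower. The summed level of the members had a log2 ratio of -0.47 (interval -0.50 to -0.44). These ratios depend on how the libraries are scaled. With totals made equal, the median of all genes moved to 0.24 and that of the members to -0.17. The members thus stood 0.41 below the median gene under either scaling. By 1.5-fold only 9 members were then lower (6.65% of all genes). Below 0 were 50 of the 77 members, where 3454 of the 11067 genes tested were.

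Prx1-EV against All-EV, a comparison that shares the All-EV library with the one above, gave a median log2 ratio of -0.41 for the members, with 71 lower and 6 higher, against a median of 0.00 and 50% lower for all genes. At least 20% lower were 48 members (25.4% of all genes). Here 23 members were at least 1.5-fold lower and none was higher, where 12.7% of all genes were lower and 12.7% higher. Counting intervals lay wholly below 0 for 53 members and wholly above 0 for 1, Mrpl49, beside 33.7% and 33% of all genes. The exact binomial test on reads called 52 members lower and 64.1% of all genes in either direction. With equal totals the median of all genes was 0.22 and that of the members -0.18, and 12 members were 1.5-fold lower (6.51% of all genes). Whether a ratio to All-EV reflects the control library or the other one cannot be told apart with 1 library each.

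**Figure D2:**
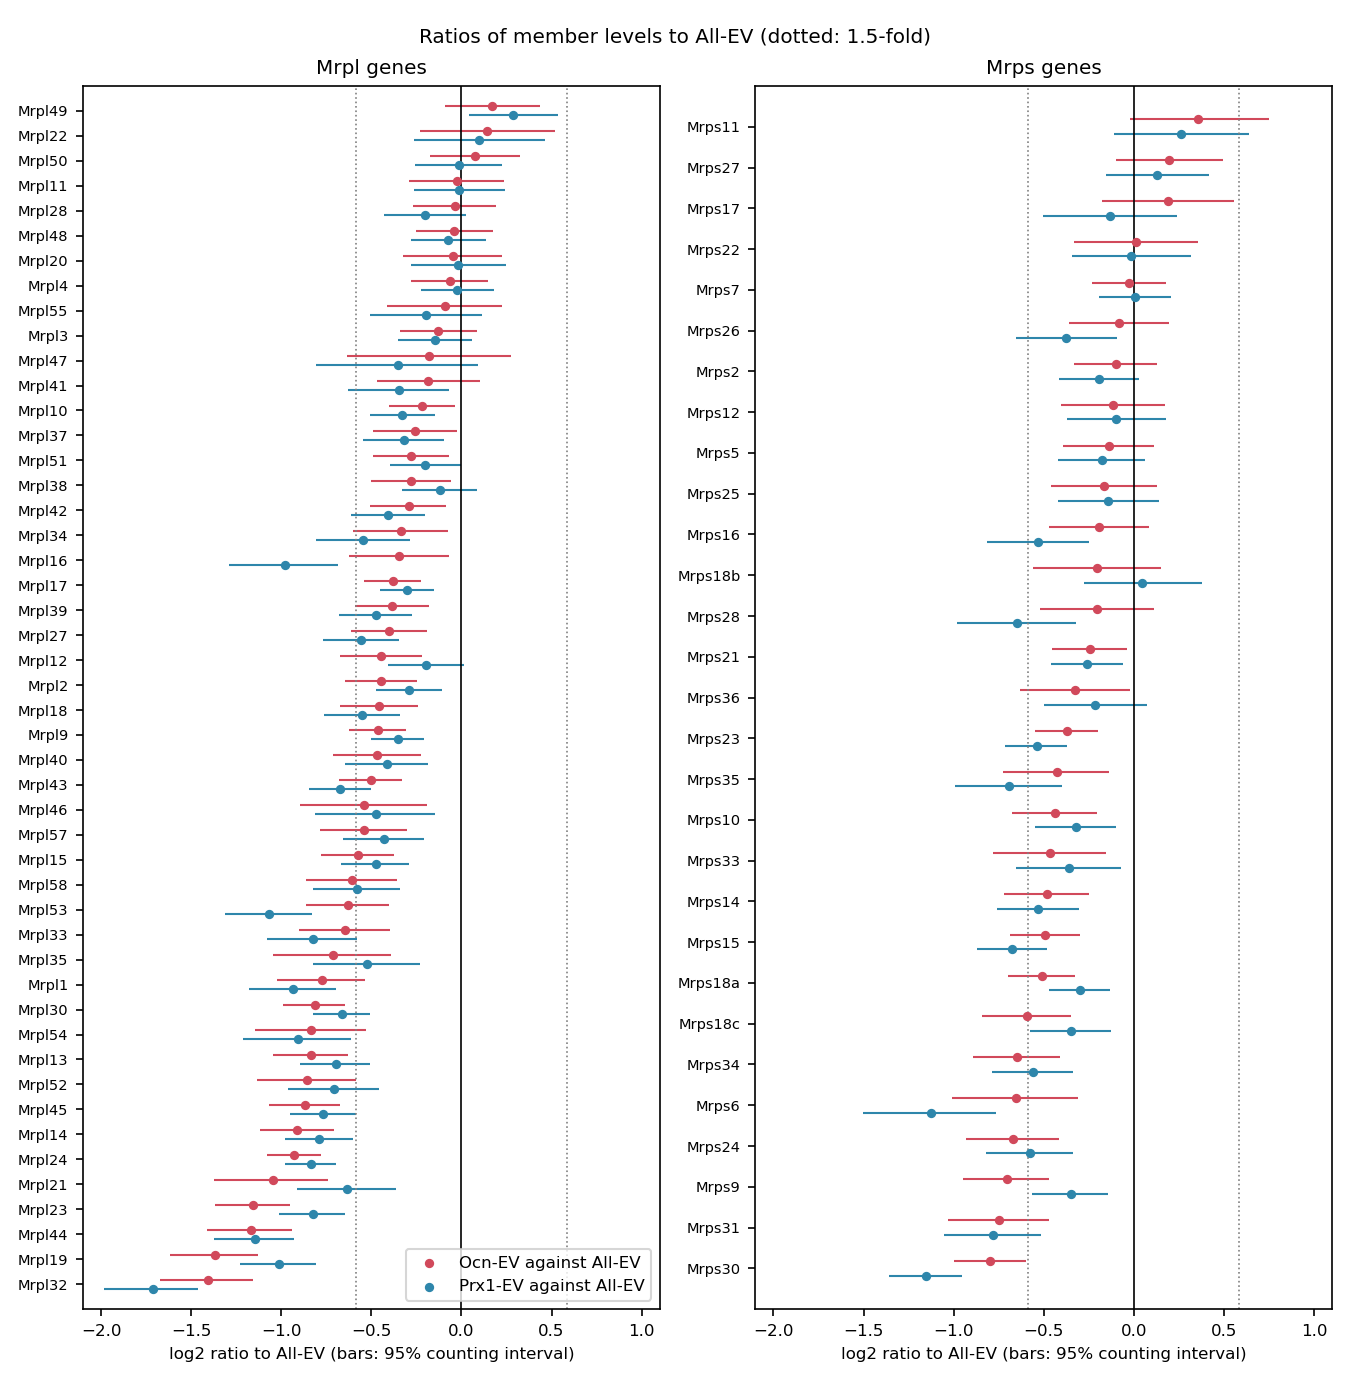
Log2 ratio of each member's level in Ocn-EV (red) and Prx1-EV (blue) to its level in All-EV, with 95% counting intervals as bars and the 1.5-fold limits dotted. Most points lie left of 0, from -1.71 for Mrpl32 to 0.36 for Mrps11, and no member passes the right-hand limit.

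The lowest member in both comparisons was Mrpl32 (Entrez gene 75398, chr13:14610301-14613037 in GRCm38), a large subunit protein with a bacterial counterpart that must be cleaved by a protease of the inner membrane before it can join the ribosome. Its level was 485 with All-EV, 182 with Ocn-EV and 147 with Prx1-EV. All-EV was the high library, and the ratios were 2.66-fold lower in Ocn-EV (log2 -1.41, interval -1.68 to -1.16) and 3.29-fold lower in Prx1-EV (-1.71, -1.98 to -1.46). Mrpl44 (Entrez gene 69163, chr1:79776018-79781445), a protein particular to mitochondria with a fold like that of RNase III, had levels of 512, 227 and 230.3. It was 2.26-fold lower in Ocn-EV (log2 -1.17, -1.41 to -0.94) and 2.22-fold lower in Prx1-EV (-1.15, -1.38 to -0.93). Both genes stayed beyond 1.5-fold with equal totals, at -1.15 and -1.49 for Mrpl32 and at -0.91 and -0.92 for Mrpl44. The promoters of these genes are shown because each holds a match to the binding motif of NRF1, nuclear respiratory factor, a transcription factor known for its targets among nuclear genes for mitochondrial proteins. Each is 300 bases of RefSeq sequence (GRCm38.p6), from 250 bases before to 50 after the annotated start and written in the direction of the gene, Mrpl32 on the minus strand at chr13:14612988-14613287 and Mrpl44 on the plus strand at chr1:79775768-79776067. Capitals mark this motif, read as TGCGCA, any base and then GCGC, on either strand and, near the beginning of the Mrpl32 line, the YY1 motif AAGATGGC on the opposite strand.
Mrpl32: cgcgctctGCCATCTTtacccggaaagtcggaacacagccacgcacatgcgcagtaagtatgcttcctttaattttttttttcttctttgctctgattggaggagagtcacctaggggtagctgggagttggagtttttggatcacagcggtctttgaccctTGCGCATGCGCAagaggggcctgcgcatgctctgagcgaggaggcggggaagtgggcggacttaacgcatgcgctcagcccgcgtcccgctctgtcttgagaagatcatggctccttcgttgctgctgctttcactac
Mrpl44: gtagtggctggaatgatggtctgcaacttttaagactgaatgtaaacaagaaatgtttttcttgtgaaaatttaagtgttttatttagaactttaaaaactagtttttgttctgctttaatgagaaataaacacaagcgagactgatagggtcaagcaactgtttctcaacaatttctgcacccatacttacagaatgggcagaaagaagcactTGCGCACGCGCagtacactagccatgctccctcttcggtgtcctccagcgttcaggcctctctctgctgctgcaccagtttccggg
In Mrpl32 the motif is read from both strands at overlapping places, beginning at -88 and -87 from the start, and in Mrpl44 it begins at -36.

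Other large subunit genes followed closely in Ocn-EV. Mrpl19, the counterpart of a bacterial protein at the face between the subunits, had levels of 533, 206 and 263, which is 2.59-fold lower in Ocn-EV (log2 -1.37, -1.62 to -1.13) and 2.02-fold lower in Prx1-EV (-1.01, -1.23 to -0.81). Mrpl23, which lies by the exit of the tunnel in bacterial ribosomes, stood at 665, 298 and 375 and was 2.23-fold lower in Ocn-EV (-1.16, -1.37 to -0.95) and 1.77-fold lower in Prx1-EV (-0.83, -1.01 to -0.65). Mrpl21 had 277, 134 and 178, with log2 ratios of -1.05 (-1.37 to -0.74) and -0.64 (-0.91 to -0.37). Mrpl24, the member with the most reads in All-EV and a protein that joins the bacterial large subunit early, had 1136, 596 and 636, with -0.93 (-1.08 to -0.78) and -0.84 (-0.98 to -0.70). For these 4 genes All-EV was again the highest of the libraries.

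The members among the 6 lowest in Prx1-EV that were not among the 6 lowest in Ocn-EV were Mrps30, Mrps6 and Mrpl53. Mrps30, which carries a small subunit name but is a part of the large subunit in mammals, had levels of 619, 356 and 278, with log2 ratios of -0.80 (-1.0 to -0.60) and -1.15 (-1.36 to -0.95). Mrps6, a small subunit protein with a bacterial counterpart, had 191, 121 and 87.2, with -0.65 (-1.01 to -0.31) and -1.12 (-1.50 to -0.77). Mrpl53, particular to mitochondria, had 427, 275 and 203, with -0.63 (-0.86 to -0.40) and -1.07 (-1.31 to -0.83). Of the exonic bases of Mrpl53, 88.0% are overlapped by other genes, so its level is uncertain. All 3 were lowest in Prx1-EV, intermediate in Ocn-EV and highest in All-EV.

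At the other end were members that were level or slightly higher. Mrps11 (Entrez gene 67994, chr7:78783131-78792988), whose bacterial counterpart sits on the platform of the small subunit near the exit path of the messenger RNA, had levels of 112, 144 and 134, and log2 ratios of 0.36 (-0.02 to 0.75) and 0.26 (-0.11 to 0.64). Mrps27, a small subunit protein of the pentatricopeptide repeat family, had 197, 226 and 215, with 0.20 (-0.10 to 0.49) and 0.13 (-0.16 to 0.42). Mrpl49, particular to mitochondria, had 250.1, 282 and 305, with 0.17 (-0.09 to 0.43) and 0.29 (0.04 to 0.54). Of these only the Prx1-EV ratio of Mrpl49 had an interval above 0. Mrpl22, which lines the tunnel in bacteria, stood at 126, 139 and 134, Mrps17 at 129, 147 and 118, and Mrpl50 at 284, 299 and 281, each with intervals spanning 0 in both comparisons. Mrps7, a protein of the head of the small subunit, hardly differed, at 422, 414 and 424, and Mrps18b, at 156, 136 and 161, was also among the 6 highest ratios in Prx1-EV.

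Between the cultures given Cre-line vesicles the members hardly differed. In Ocn-EV against Prx1-EV the median log2 ratio was 0.01, with 38 members lower (53% of all genes were) and 39 higher, and its sign changed with the filter. At least 20% lower were 4 members (6.62% of all genes). By 1.5-fold no member was lower and 1 was higher, where 1.3% of all genes were lower and 2.24% higher. The 1 gene was Mrpl16, the counterpart of a bacterial protein close to the transfer RNA binding sites, with levels of 266, 209 and 134 and a log2 ratio of 0.63 (0.33 to 0.95) in Ocn-EV against Prx1-EV. Intervals lay wholly below 0 for 7 members and wholly above 0 for 7, beside 20.3% and 15.8% of all genes. The exact binomial test on reads called 4 members lower, and 25.7% of all genes in either direction. The lowest were Mrpl21 at -0.41 (-0.74 to -0.09), Mrps9 at -0.35 (-0.59 to -0.12), Mrpl19 at -0.35 (-0.62 to -0.09) and Mrpl23 at -0.33 (-0.55 to -0.11). After Mrpl16 the highest were Mrps6 at 0.47 (0.08 to 0.87), Mrps28 at 0.44 (0.11 to 0.78) and Mrpl53 at 0.44 (0.18 to 0.70).

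Large and small subunit genes were next set side by side. In Ocn-EV against All-EV the 48 Mrpl genes had a median log2 ratio of -0.45, with 45 lower and 17 beyond 1.5-fold. The 29 Mrps genes had a median of -0.32, with 25 lower and 7 beyond 1.5-fold. Of all genes 51.3% were lower and 13.6% lower by 1.5-fold. The 5 members at least 2-fold lower were all Mrpl genes (4.2% of all genes tested were as low), and their names are Mrpl32, Mrpl19, Mrpl44, Mrpl23 and Mrpl21. The summed level gave the same order, at -0.52 (-0.55 to -0.49) for Mrpl and -0.36 (-0.41 to -0.32) for Mrps. In Prx1-EV against All-EV the medians were -0.48 for Mrpl, with 17 beyond 1.5-fold, and -0.35 for Mrps, with 6 (12.7% of all genes), and the sums were -0.51 (-0.54 to -0.48) and -0.40 (-0.44 to -0.35). Of the 6 genes at least 2-fold lower there (3.66% of all genes), Mrps30 and Mrps6 had Mrps names. With equal totals 9 Mrpl and 0 Mrps genes were 1.5-fold lower in Ocn-EV (6.65% of all genes) and 10 and 2 in Prx1-EV (6.51%). In Ocn-EV 15 Mrps genes were then below 0 and 14 above, where 3454 of all 11067 genes tested were below. After removal of a trend with length and GC, 12 Mrpl and 1 Mrps genes were 1.5-fold lower in Ocn-EV (12.4% of all genes). In Prx1-EV 8 and 3 were (10.9% of all genes). The difference between the subunit medians was 0.13 in either comparison, small beside the spread of single members.

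Sorting the proteins by where they sit in the mammalian ribosome instead of by name moves Mrps30 and Mrps18a to the large subunit and takes out Mrps36, now known as a subunit of the 2-oxoglutarate dehydrogenase complex. In Ocn-EV the 50 structural large subunit genes then had a median of -0.46 and the 26 structural small subunit genes -0.22. In Prx1-EV they had -0.48 and -0.35. With equal totals the structural small subunit median in Ocn-EV turned to 0.03, where the median of all genes was 0.24. Descent made little difference within the large subunit. The 30 genes with a bacterial counterpart had medians of -0.45 in Ocn-EV and -0.50 in Prx1-EV, and the 20 particular to mitochondria -0.49 and -0.45. In the small subunit, the 17 with a counterpart had -0.20 and -0.32, and the 9 without had -0.37 and -0.37. No test separates these classes.

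Members with known roles are given next. The stalk, which recruits translation factors to the large subunit, is built on Mrpl10, Mrpl11 and Mrpl12. Mrpl12, which also binds the mitochondrial RNA polymerase, had levels of 401, 294 and 349.8, with log2 ratios of -0.44 (-0.68 to -0.22) and -0.20 (-0.41 to 0.01). Mrpl10 had 575, 494 and 458, with -0.22 (-0.40 to -0.04) and -0.33 (-0.51 to -0.15). Mrpl11 was level at 265, 259.9 and 263, with -0.03 (-0.29 to 0.24) and -0.01 (-0.26 to 0.24). The stalk genes thus did not share 1 ratio. Mrpl45, which ties the large subunit to the inner membrane near the tunnel exit, was lower in both, from 642 to 351 and 377, at -0.87 (-1.07 to -0.67) and -0.77 (-0.95 to -0.58). Mrpl58, a peptidyl-tRNA hydrolase built into the ribosome, had 351, 229.9 and 235, with -0.61 (-0.87 to -0.36) and -0.58 (-0.82 to -0.34). Mrpl3, a core protein of the large subunit, was nearly level at 409.7, 375 and 369.9.

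In the small subunit, Mrps12, a protein of the decoding center, had levels of 229, 211 and 214, with log2 ratios of -0.11 (-0.40 to 0.17) and -0.10 (-0.37 to 0.18). Mrps22, a protein in which human disease variants are known, was nearly level, at 156, 157 and 154. Mrps16, another such gene, had 252, 221 and 174, with -0.19 (-0.47 to 0.08) and -0.53 (-0.82 to -0.25). The 3 paralogs of a single bacterial protein occupy different sites. Mrps18a had 624, 438 and 506, with -0.51 (-0.70 to -0.32) and -0.30 (-0.47 to -0.13). Mrps18c had 368, 243 and 289, with -0.59 (-0.84 to -0.35) and -0.35 (-0.57 to -0.12). Mrps18b, whose levels are given above, had -0.20 (-0.56 to 0.15) and 0.05 (-0.28 to 0.38), so that its intervals spanned 0 where the intervals of the other two did not. Mrps36, the member that is no ribosomal protein, had 221, 176 and 190.2, with -0.32 (-0.63 to -0.02) and -0.21 (-0.50 to 0.07).

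Some proteins of the ribosome lack the prefix and were measured alongside. All 5 were below All-EV in both comparisons, with medians of -0.64 in Ocn-EV and -0.60 in Prx1-EV, and 3 passed 1.5-fold in each. Of all genes 51.3% were lower at all in Ocn-EV and 50% in Prx1-EV, and 13.6% and 12.7% were lower by 1.5-fold. Dap3, the GTP-binding protein of the small subunit that is also known as a death-associated protein, had levels of 796, 486 and 526, with -0.71 (-0.88 to -0.54) and -0.60 (-0.76 to -0.44). Aurkaip1, of the small subunit, had 1127, 678 and 729, with -0.73 (-0.88 to -0.59) and -0.63 (-0.76 to -0.49). Gadd45gip1, of the large subunit, had 377, 242 and 208, with -0.64 (-0.88 to -0.39) and -0.86 (-1.11 to -0.62). Chchd1 was at -0.51 (-0.78 to -0.25) and -0.12 (-0.36 to 0.12), and Ptcd3 at -0.24 (-0.48 to -0.01) and -0.21 (-0.43 to 0.01), both of the small subunit. With equal totals none of the 5 passed 1.5-fold in Ocn-EV (6.65% of all genes) and 1, Gadd45gip1, did in Prx1-EV (6.51%). Ptcd3 then moved to 0.01 in both and Chchd1 to 0.10 in Prx1-EV.

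Levels within a library are comparable between genes only per length. Per kilobase of transcript, members spanned a 32.7-fold range of mean level, from 25.4 for Mrpl47 and 25.9 for Mrps17 to 829 for Mrps21. In the large subunit the highest were Mrpl14 (656), Mrpl23 (606), Mrpl24 (589.6) and Mrpl42 (576), and the lowest after Mrpl47 were Mrpl35 (46.7), Mrpl19 (66.8) and Mrpl1 (79.5). In the small subunit Mrps21 was followed by Mrps18a (591), Mrps15 (470.2) and Mrps23 (391), and above Mrps17 at the low end came Mrps25 (34.6), Mrps35 (46.4) and Mrps26 (51.0). The genes at the low end have long annotated transcripts and those at the high end short ones (5061 bases for Mrps17 and 488 for Mrps21), so the order also depends on which transcript length is taken. The median per-kilobase level was 285 for Mrpl and 202 for Mrps genes in All-EV, 202 and 145 in Ocn-EV, and 201 and 149.6 in Prx1-EV.

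Transcript length moved with the ratios across the whole table and is given beside them for that reason. Genes with transcripts under 1000 bases had a median log2 ratio of -0.41 in Ocn-EV and -0.44 in Prx1-EV, against 0.12 and 0.14 for those of 4000 bases or more. Members have short transcripts, with a median of 1339 bases against 3241 for all genes tested. Within each class the members' median was still the lower one. Under 1000 bases the 23 members had -0.49 in Ocn-EV and -0.56 in Prx1-EV. From 1000 to 2000 bases the 29 members had -0.44 and -0.35, where all genes had -0.20 and -0.22. From 2000 to 4000 bases the 16 members had -0.43 and -0.50, where all genes had -0.01 and -0.00. At 4000 bases and above the 9 members had -0.16 and -0.30. After a trend on length and GC content was removed, the members' medians were -0.21 in Ocn-EV and -0.20 in Prx1-EV, beside -0.05 and -0.02 for all genes. The counts beyond 1.5-fold lower became 13 in Ocn-EV (12.4% of all genes) and 11 in Prx1-EV (10.9% of all genes), shares of the members not far from those of all genes. Mrpl32 and Mrpl19, which have long transcripts of 3013 and 5000 bases, kept values of -1.28 and -1.47 in Ocn-EV.

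**Figure D3:**
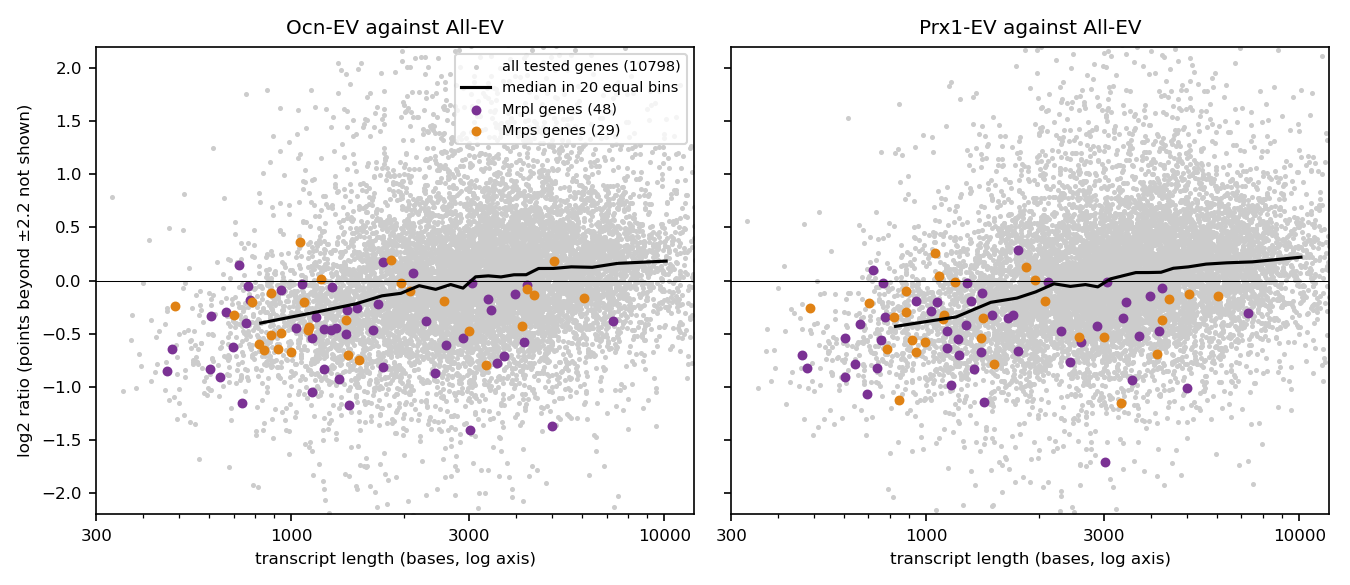
Log2 ratio against transcript length (log axis) for the 10798 tested genes with a known length (grey), with the running median in 20 bins (black) and the Mrpl (purple) and Mrps (orange) genes. The median line climbs from left to right in both panels, and most members lie on the short side and below the line.

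A second way to see the members is beside the gene that shares their promoter region. Of the 69 members with a start site in the RefSeq promoter table, 22 had a protein-coding gene starting head to head, on the opposite strand within 500 bases. In 17 pairs the partner was a tested gene that is no member. The partners' median log2 ratio was -0.07 in Ocn-EV and -0.04 in Prx1-EV, while the members of the same pairs had -0.45 and -0.35. By 1.5-fold, 5 of these members were lower in each comparison, and of the partners 3 were lower and 1 higher in Ocn-EV and 1 lower and none higher in Prx1-EV. Of all genes 13.6% were lower and 13.8% higher in Ocn-EV, and 12.7% each in Prx1-EV.

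Several pairs had ratios of different sign. Mrpl21 starts 32 bases from Ighmbp2, a helicase gene, which had levels of 152, 215 and 194 and log2 ratios of 0.50 (0.19 to 0.83) and 0.35 (0.04 to 0.67), where Mrpl21 had -1.05 and -0.64. Mrpl2 had -0.45 in Ocn-EV beside 0.52 (0.37 to 0.67) for Klc4, a kinesin light chain. The partner was the lower gene for Mrps27 and Mrpl49, but the intervals of both members spanned 0 in Ocn-EV. Ptcd2, a mitochondrial RNA-processing protein and partner of Mrps27, had -0.67 (-0.90 to -0.44) in Ocn-EV. Fau, the source of a cytoplasmic ribosomal protein and partner of Mrpl49, had -0.43 (-0.47 to -0.38). Mrps12 and Sars2, a mitochondrial seryl-tRNA synthetase, had -0.11 and 0.92 (0.39 to 1.51) in Ocn-EV, with Sars2 at levels of only 47.5, 91.1 and 57.6. The interval of Mrps12 also spanned 0. Mrpl32 and its partner Psma2, a proteasome subunit, were both lower, the partner at -0.50 (-0.61 to -0.38) in Ocn-EV. Both genes were also lower in Ocn-EV for Mrpl18 (-0.46) with Tcp1 (-0.64) and for Mrpl43 (-0.50) with Twnk (-0.43).

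In 1 pair both genes are members. Mrpl46, of the large subunit, and Mrps11, of the small subunit, start 42 bases apart on chromosome 7. Mrpl46 had levels of 181, 124 and 129.98, with log2 ratios of -0.54 (-0.90 to -0.19) and -0.48 (-0.81 to -0.15), while Mrps11 had the highest ratio of all members in Ocn-EV. The promoters of this pair and of Mrpl21 are shown because neighbouring starts went with different ratios. Mrps11 is on the plus strand at chr7:78782881-78783180, Mrpl46 on the minus strand at chr7:78783040-78783339 and Mrpl21 on the plus strand at chr19:3282792-3283091. Capitals mark the longer YY1 motif (AAGATGGC followed by GGC) in Mrps11 and the ETS motif CCGGAAG in Mrpl21, each as it reads on the opposite strand.
Mrps11: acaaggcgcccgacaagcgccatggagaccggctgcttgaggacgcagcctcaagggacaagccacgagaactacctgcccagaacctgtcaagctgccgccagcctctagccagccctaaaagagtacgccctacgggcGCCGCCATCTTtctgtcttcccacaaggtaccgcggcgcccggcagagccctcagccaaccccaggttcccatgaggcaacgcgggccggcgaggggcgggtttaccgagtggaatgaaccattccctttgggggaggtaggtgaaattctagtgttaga
Mrpl46: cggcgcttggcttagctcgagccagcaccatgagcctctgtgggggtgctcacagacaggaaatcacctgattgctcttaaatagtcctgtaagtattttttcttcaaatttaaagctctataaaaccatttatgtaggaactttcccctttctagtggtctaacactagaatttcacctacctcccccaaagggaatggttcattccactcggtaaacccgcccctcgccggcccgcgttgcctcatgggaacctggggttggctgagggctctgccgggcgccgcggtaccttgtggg
Mrpl21: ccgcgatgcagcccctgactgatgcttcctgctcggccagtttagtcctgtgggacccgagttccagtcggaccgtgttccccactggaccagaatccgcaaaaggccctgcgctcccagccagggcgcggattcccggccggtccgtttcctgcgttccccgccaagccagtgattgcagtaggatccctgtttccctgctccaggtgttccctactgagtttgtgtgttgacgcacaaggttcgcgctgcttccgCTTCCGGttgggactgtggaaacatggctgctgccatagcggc
The end of the Mrps11 line and the end of the Mrpl46 line cover the same stretch of DNA, read from opposite strands, and the shared stretch holds none of the motifs searched for.

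**Figure D4:**
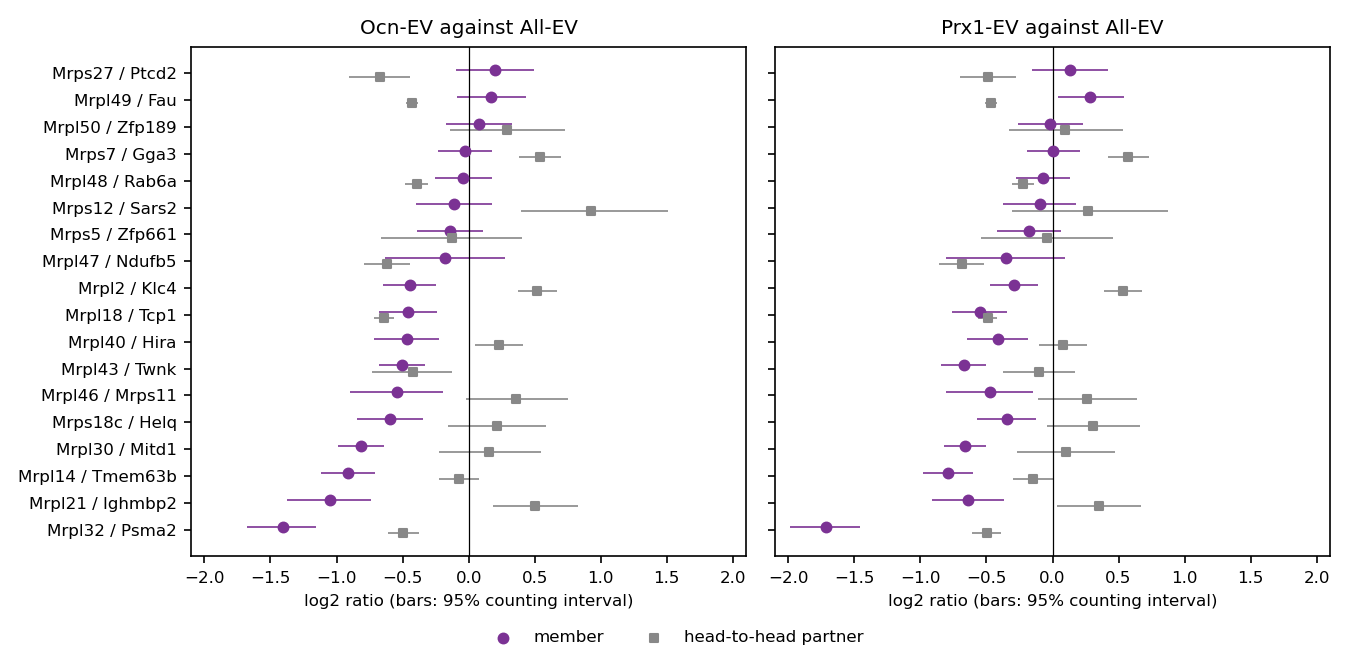
Log2 ratios to All-EV of 17 members (purple circles) and their head-to-head partners that are no members (grey squares), and of the pair Mrpl46 and Mrps11, with 95% counting intervals. Rows are ordered by the member's ratio in Ocn-EV, so members lie farther left down the panel, whereas the partners scatter around 0, as in the row of Mrpl21 (-1.05) and Ighmbp2 (0.50) in Ocn-EV.

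The promoters were then searched on both strands for motifs of factors known to act on nuclear genes of mitochondrial biogenesis. Of the members' 75 promoters, 9.33% held the NRF1 motif (TGCGCA, any base, GCGC), where 5.48% of the promoters of tested protein-coding genes and 2.44% of all promoters did. The ETS motif CCGGAAG, which the factor GABP recognises, was in 34.7% of the members' promoters, against 18.1% and 8.86%, and its longer form CCGGAAGT in 16%, against 8.43% and 3.89%. The YY1 motif AAGATGGC was in 16%, against 4.64% and 2.75%, and its longer form, which goes on with GGC, in 6.67%, against 1.6% and 0.633%. The E-box CACGTG, which Myc and other factors bind, was in 9.33%, against 10.2% and 7.15%. The 75 promoters belong to 69 genes, and close start sites of 1 gene can count the same motif again, as for the E-box of Mrpl2. The longer ETS and YY1 forms contain the shorter ones and are counted under both. The promoter of Mrps27 (plus strand, chr13:99344536-99344835) is shown as a case with both the ETS and the YY1 motif in capitals, in a member that was not lower. Of the exonic bases of Mrps27, 24.2% are overlapped by another gene, so its level is uncertain.
Mrps27: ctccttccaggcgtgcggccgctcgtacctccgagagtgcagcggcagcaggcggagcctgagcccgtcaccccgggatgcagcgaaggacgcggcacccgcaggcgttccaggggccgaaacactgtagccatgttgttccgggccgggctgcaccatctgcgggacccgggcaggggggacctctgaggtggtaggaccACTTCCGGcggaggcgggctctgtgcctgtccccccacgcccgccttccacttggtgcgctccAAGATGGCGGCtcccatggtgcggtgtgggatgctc
The 7 members with the NRF1 motif had a median log2 ratio of -0.71 in Ocn-EV and -0.43 in Prx1-EV, and the 61 without had -0.35 and -0.35. The 26 members with CCGGAAG had -0.38 and -0.37, and the 42 without -0.44 and -0.35. The 11 with AAGATGGC had -0.26 and -0.30, and the 57 without -0.44 and -0.37. The 4 with CACGTG had -0.35 and -0.31, and the 64 without -0.39 and -0.39. These medians describe small overlapping sets and carry no test.

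The genes of the factors themselves, measured as RNA, mostly differed by less than 1.5-fold. Nrf1 had levels of 572, 494 and 509, with log2 ratios of -0.21 (-0.39 to -0.03) and -0.17 (-0.34 to 0.01). Gabpa, the DNA-binding subunit of GABP, had 739, 757 and 791, with 0.03 (-0.12 to 0.19) and 0.10 (-0.05 to 0.25). Yy1 had -0.24 and -0.27, Gabpb1 -0.04 and -0.32, Gabpb2 -0.39 and -0.37, and Esrra 0.10 and -0.03. Of the coactivators, Pprc1 had 0.41 (0.25 to 0.57) and 0.17 (0.01 to 0.32) and Ppargc1b, near the filter, -0.47 (-1.01 to 0.05) and 0.14 (-0.32 to 0.60). The 1 regulator beyond 1.5-fold was Myc, a general activator of ribosome and mitochondrial gene expression, with levels of 1737, 698 and 699 and log2 ratios of -1.31 (-1.45 to -1.18) and -1.31 (-1.44 to -1.19). Myc was 1 of 9 regulators tested, where 13.6% of all genes were 1.5-fold lower in Ocn-EV and 12.7% in Prx1-EV.

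The RNA parts of the mitochondrial ribosome were also lower. mt-Rnr1, the small subunit ribosomal RNA, had levels of 2161.5, 1151 and 1145, with log2 ratios of -0.91 (-1.02 to -0.80) and -0.92 (-1.02 to -0.81). mt-Rnr2, of the large subunit, had 4993, 3179 and 3351, with -0.65 (-0.72 to -0.58) and -0.58 (-0.64 to -0.51). The labels do not say how messenger RNA was enriched, on which the levels of these RNAs depend. The messenger RNAs that the ribosome translates were mixed. Of 13, 10 passed the filter, with medians of -0.11 and -0.12. The summed level of the 13 was lower by more, at -0.66 (-0.67 to -0.64) and -0.69 (-0.70 to -0.68). Their share of reads was 0.954%, 0.723% and 0.693%. COX1 had -0.90 in both (-0.91 to -0.88), ATP6 -0.71 and -0.56, and ND1 -0.33 and -0.37. ND4 had 0.27 and 0.16, and CYTB 0.28 and 0.06. COX3, ND2, ND6, ND5 and COX2 lay between -0.26 and 0.03. Nuclear copies of mitochondrial DNA are known in the mouse genome, so the split of reads for these genes is uncertain.

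Among the other genes of mitochondrial translation the medians were closer to that of all genes, of which 13.6% were 1.5-fold lower in Ocn-EV and 12.7% in Prx1-EV. Of 28 assembly factors, 5 were lower and 2 higher by 1.5-fold in Ocn-EV, and 4 lower and 1 higher in Prx1-EV, with medians of -0.20 and -0.06. With equal totals 5 were lower and 6 higher in Ocn-EV, and 1 lower and 5 higher in Prx1-EV, with medians of 0.06 and 0.16. Of all genes 6.65% were then lower and 24.7% higher in Ocn-EV, and 6.51% lower and 22.9% higher in Prx1-EV. Noa1, a GTPase needed for the small subunit, had -1.13 (-1.43 to -0.84) and -0.78 (-1.04 to -0.52), and Mterf4, which guides assembly of the large subunit, -1.08 and -0.46. Mtg2, a GTPase of the large subunit, had 0.60 (0.26 to 0.94) and 0.34 (0.01 to 0.69), and Mrm2, a methyltransferase of the large ribosomal RNA, 0.59 and 0.42. Of 15 translation factors, 3 were lower in Ocn-EV and 4 in Prx1-EV and none was higher, and with equal totals 3 and 2 were lower and 0 and 1 higher. Mrrf, the ribosome recycling factor, had 505, 189 and 223, with -1.41 (-1.67 to -1.16) and -1.17 (-1.40 to -0.95), and Mtrf1, a release factor, had -1.34 and -0.86. The initiation factor Mtif2 had 0.21 and 0.07, and Lrpprc, which stabilises mitochondrial messenger RNAs, 0.25 and 0.35.

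Of 20 genes for mitochondrial tRNA synthetases and related enzymes, 2 were lower and 2 higher by 1.5-fold in each comparison. Their medians were -0.00 in Ocn-EV and 0.12 in Prx1-EV. With equal totals 2 were lower and 6 higher in each, with medians of 0.25 and 0.35. Of all genes 6.65% were then lower and 24.7% higher in Ocn-EV, and 6.51% and 22.9% in Prx1-EV. Lars2, for leucine, had levels of 4096, 997 and 864, with -2.04 (-2.14 to -1.94) and -2.24 (-2.35 to -2.14), and Fars2, for phenylalanine, had -1.12 and -1.14. Sars2 and Qrsl1 were the highest in Ocn-EV, at 0.92 and 0.89. Genes of mitochondrial DNA maintenance and transcription (11 tested) had medians of -0.07 and -0.13, with Polrmt, the RNA polymerase, at 0.62 and 0.27, Mgme1 at 0.59 and 0.52, Ssbp1 at -0.65 and -0.13 and Polg2 at -0.49 and -0.23. The 11 genes of mitochondrial RNA processing and decay had -0.34 and -0.24, from Hsd17b10 and Trmt10c, subunits of the enzyme that cuts the 5′ ends of transfer RNAs, at -1.16 and -0.94 in Ocn-EV, to Fastkd3 at 0.29 and Tbrg4 at 0.60. The 13 protein import genes had -0.53 and -0.44, with 5 lower in Ocn-EV and 2 in Prx1-EV by 1.5-fold (13.6% and 12.7% of all genes). With equal totals 1 and 0 were lower (6.65% and 6.51% of all genes). The import genes include Hspa9, the matrix chaperone, at -0.86 and -0.55 and Pmpcb, of the processing peptidase, at -0.73 and -0.64. Pmpca had -0.04 and 0.05, and Tomm40 -0.03 and -0.34. With the length and GC trend removed, the medians were -0.46 and -0.26 for RNA processing and decay and -0.35 and -0.29 for import. These were below the members' -0.21 and -0.20. On that measure tRNA synthetases and related enzymes had -0.00 and 0.06, and DNA maintenance and transcription -0.07 and -0.15.

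Other large protein machines gave a scale for the members' ratios. The 76 tested cytoplasmic ribosomal protein genes had medians of -0.82 in Ocn-EV and -0.85 in Prx1-EV, with 69 and 70 beyond 1.5-fold lower, from Rps27a at -1.93 to Rpl15 at -0.28 in Ocn-EV, and Rps15a (-1.29) and Rpl8 (-0.31) next to these ends. All 76 were below 0 under either scaling, but the 1.5-fold counts were 32 and 46 with equal totals and 27 and 24 with the length and GC trend removed. The 74 nuclear-encoded subunits of the respiratory chain and ATP synthase had -0.48 in both, with 23 and 28 beyond 1.5-fold lower, from Atp5g2 and Uqcrq at -1.04 and -1.0 to Atp5g1 and Uqcrc1 at -0.01 and 0.12 in Ocn-EV. These counts were 6 and 10 with equal totals and 6 and 6 with the trend removed. Of all genes 13.6% in Ocn-EV and 12.7% in Prx1-EV were 1.5-fold lower. With equal totals 6.65% and 6.51% were, and with the trend removed 12.4% and 10.9%. The members' medians, -0.43 and -0.41, were thus near those of the respiratory chain subunits and about midway to 0 from those of the cytoplasmic ribosomal proteins. With the length and GC trend removed the medians in Ocn-EV were -0.48 for cytoplasmic ribosomal proteins, -0.21 for the members and -0.13 for the respiratory chain, and in Prx1-EV -0.46, -0.20 and -0.07.

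**Figure D5:**
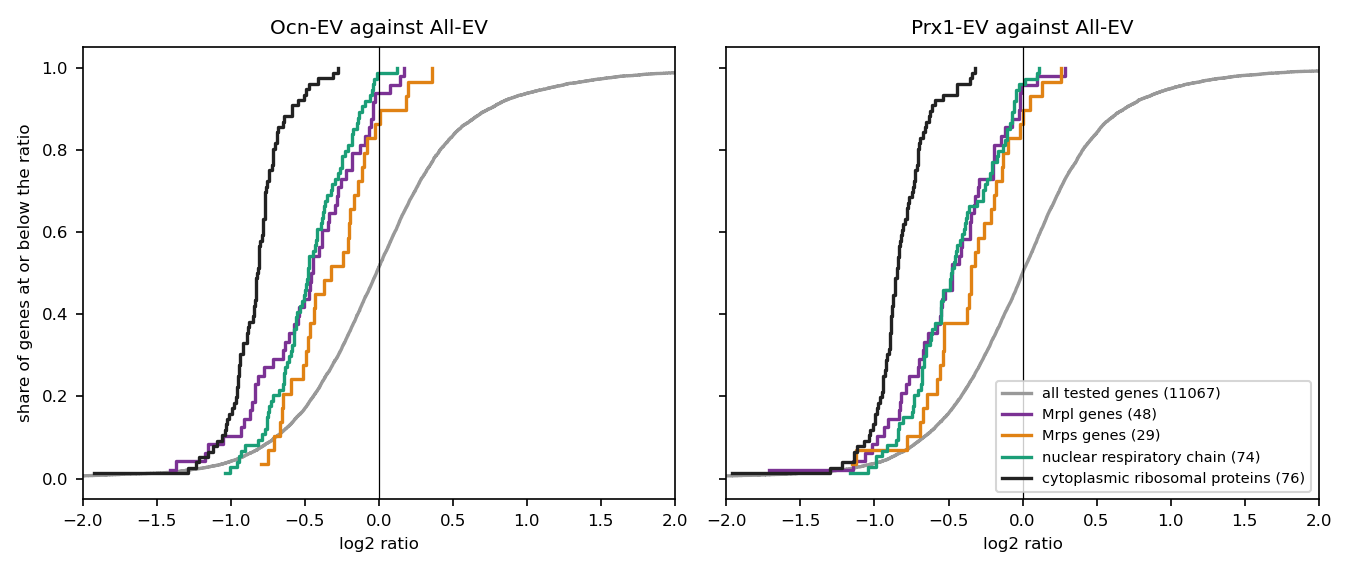
Share of genes at or below each log2 ratio for all tested genes (grey), Mrpl (purple), Mrps (orange), nuclear respiratory chain subunits (green) and cytoplasmic ribosomal proteins (black). The cytoplasmic ribosomal proteins lie farthest left in both panels, the Mrpl and respiratory chain curves run close together near a median of -0.45 to -0.48, and the Mrps curve lies between these and the grey curve.

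Reads of some members may belong to overlapping genes. In the GENCODE vM21 annotation 33 of the 78 members had exonic bases overlapped by another gene on either strand. In 10 this came to more than 20% of their exonic length. These were Mrpl53 (88.0%), Mrps34 (77.8%), Mrps25 (69.8%), Mrpl19 (36%), Mrpl43 (33.4%), Mrps18b (30.5%), Mrpl24 (26.3%), Mrps27 (24.2%), Mrpl47 (24.2%) and Mrps18c (23.2%). Whether the counting used strand is not stated in the labels or processing notes, so the values of these genes are uncertain. For Mrpl53 and Mrps18c the largest overlap is with a gene on the same strand, which counting by strand would not separate. Without the 10, the medians of the remaining 67 members were -0.40 in Ocn-EV and -0.41 in Prx1-EV, with 19 beyond 1.5-fold lower in each.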

How the data were processed

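Messenger RNA was sequenced from 3 mBMSC cultures, 1 library per vesicle preparation, grouped by the treatment label. The authors deposited normalised counts per Entrez gene (a signal scaled between libraries). Per the submitters' processing notes the build was mm10 and the tools were HISAT2 2.2.1, featureCounts 2.0.3, Trimmomatic 0.38.1 and FastQC 0.74, with DESeq2 2.11.40.8. The deposited values are whole multiples of the value of 1 read within a relative tolerance of 1e-06 in 100% of cases, so whole reads were recovered. Of 27179 genes, 25275 matched a symbol in the RefSeq GRCm38.p6 table.

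Ratios are log2((a + 1)/(b + 1)) of deposited values, so small changes of low genes are understated, and folds are plain ratios. A mean level of 50 over the libraries was the minimum. Intervals are 95% exact conditional binomial (Clopper-Pearson) intervals on recovered reads. They and the floor of 3 reads cover counting error only. An exact binomial test on those reads, which compares libraries and not conditions, called 7134 genes in Ocn-EV against All-EV, 7092 in Prx1-EV against All-EV and 2840 in Ocn-EV against Prx1-EV, at a Benjamini-Hochberg adjusted limit of 0.05. Alternatives were equal totals, TMM (edgeR 4.0.16), other filters, pseudocounts and fold limits, and a trend on transcript length and GC content (available for 97.6% of tested genes, GENCODE vM21). The interval and trend steps were tested on simulated data.

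Members, lists and tests were chosen with earlier results of these data known. Members named are the 6 highest and 6 lowest ratios against All-EV, the 4 highest and 4 lowest of Ocn-EV against Prx1-EV, the 4 highest and 4 lowest levels per kilobase in each subunit, the member under the filter and 15 genes of known role. Other lists give their 2 highest and 2 lowest genes in Ocn-EV, and 3 short lists are given whole. Genes in the paragraphs on head-to-head pairs, motifs and overlap, and the mitochondrial ribosomal RNAs, were chosen after their values were seen. Python 3.11.15, numpy 2.4.6, pandas 2.3.3, scipy 1.17.1 and R 4.3.3 were used.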

Additional observations from a re-analysis of the deposited data

How the results depend on the processing

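No paired analysis was possible because each condition has 1 library, and for the same reason no replicate could be left out. Over the alternatives, 69 values stayed close to those reported, 21 moved and 3 reversed. The median log2 ratio of the members in Ocn-EV against All-EV (-0.43) was -0.17 with equal totals, -0.21 after removal of the trend on length and GC and -0.40 without the members overlapped by over 20% (an alternative chosen after seeing the data). In Prx1-EV against All-EV (-0.41) it was -0.18 with equal totals and -0.20 with the trend removed. The count of members 1.5-fold lower in Ocn-EV (24) was 9 with equal totals, 13 with the trend removed, 46 at the limit of at least 20% lower, 5 at 2-fold and 51 by the exact binomial test on reads. In Prx1-EV (23) these counts were 12, 11, 48, 6 and 52. For Ocn-EV against Prx1-EV the median (0.01) was -0.0169 with a mean level of at least 200, -0.0008 with no filter beyond 1 read and -0.0080 with the trend removed, all 3 of opposite sign, and 0.0447 with equal totals, and the count of members lower (0) was 4 at that limit and 4 by the exact binomial test. The small minus large subunit difference in medians was 0.13 in Ocn-EV against All-EV, 0.0421 at a mean level of at least 200 and 0.24 with structural subunits, and in Prx1-EV against All-EV 0.13 and 0.0159 with the trend removed. The causes of these changes were not tested. Members with few reads have wide counting intervals, and differences between libraries from culture, vesicle preparation or library making could not be measured.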
